A study of Mus musculus with 12 samples.

Results

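Translation initiation factor genes encode the proteins that bring the ribosome, the initiator tRNA and a messenger RNA together at a start codon. They were taken from the tables of liver RNA by their symbol, as every symbol that begins with Eif1 to Eif6, leaving out the eIF2 kinases (Eif2ak), the Argonaute genes that carry the older symbol Eif2c, and Eif2s3. This rule used no measured value and found 48 of the 22322 gene symbols. Each symbol is represented by 1 transcript row, the one with the highest mean level over the samples. Of the 48 genes, 46 reached a mean of 1 RPKM (reads scaled to transcript length and to sequencing depth) in at least 1 group and were tested.

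Liver RNA was sequenced in 12 samples from mice of the C57BL/6 strain, aged 8 weeks, as 4 groups of 3 samples. The groups were wild-type (WT) mice and mice with a liver-specific knockout (KO) of Bmal1, each at circadian time 0 h (CT0) and 12 h (CT12). Per the study's methods the WT mice carried a floxed Bmal1 gene on both chromosomes, and the KO mice came from crossing that line with mice whose CRE recombinase is driven by a liver-specific promoter. The sources name no CRE in the WT group, so an effect of the recombinase and the loss of Bmal1 cannot be told apart. All mice were held in a cycle of light and dark and then in constant darkness for the last days, so circadian time is counted from the hour at which the lights would have come on. The titles number 3 replicates in each group, which the n used here follows, as do the study's methods, although the treatment protocol in the labels speaks of 2 mice per genotype and time. The labels name no sequencing batch.

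Initiation starts when eIF2 carries the initiator tRNA to the small ribosomal subunit, to which eIF1, eIF1A, eIF3 and eIF5 also bind. The cap-binding protein eIF4E, the scaffold eIF4G and the helicase eIF4A recruit the messenger RNA, and the eIF4E-binding proteins block eIF4E from eIF4G unless the kinase complex mTORC1 phosphorylates them. In liver, feeding and fasting follow the daily cycle, and both mTORC1 activity and the phosphorylation of eIF2 are known to respond to nutrients. BMAL1, encoded by Arntl, pairs with CLOCK and binds the E-box, a short DNA motif.

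Promoter sequence was available for 36 of the 48 genes (RefSeq, GRCm38.p6, 250 bases before to 50 bases after a gene's start). The canonical E-box CACGTG, which reads the same on both strands, lay in this window for 10 of the 36 genes, which is 27.8%. Among all 27025 genes with a promoter, 8.09% held it. Some genes have several promoters. Counted by single promoter, 12 of the 48 promoters of the 36 genes held it, against 7.15% of all 32851. The 10 genes were Eif1b, Eif3a, Eif3f, Eif3k, Eif4a1, Eif4e, Eif4g1, Eif4h, Eif5a and Eif5a2. The windows shown are those of Eif1b and Eif3a, which differed between genotypes at CT12, and those of Eif4e, Eif4g1 and Eif4a1, the genes of the cap-binding complex that hold the motif. Each is 30 bases long and reads 5′ to 3′ on the gene's strand, with the E-box in capitals.
Eif1b, chr9:120492570-120492599, plus strand, motif from base -24: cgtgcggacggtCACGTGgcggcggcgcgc
Eif3a, chr19:60790654-60790683, minus strand, motif from base 23: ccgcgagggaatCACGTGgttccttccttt
Eif4e, chr3:138527028-138527057, plus strand, motif from base -228: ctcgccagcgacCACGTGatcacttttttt
Eif4e, chr3:138527192-138527221, plus strand, motif from base -64: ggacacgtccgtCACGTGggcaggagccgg
Eif4g1, chr16:20672661-20672690, plus strand, motif from base -54: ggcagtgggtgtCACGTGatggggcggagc
Eif4g1, chr16:20672730-20672759, plus strand, motif from base 16: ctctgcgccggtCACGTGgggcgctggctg
Eif4a1, chr11:69672595-69672624, minus strand, motif from base -189: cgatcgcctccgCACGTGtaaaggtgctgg
Positions count from the annotated start, whose first base is 1. A match describes the letters in the window and is not evidence of binding. Eif3g and Eif4a2, which also differed between genotypes at CT12, have promoters in the table without an E-box in the window. The D-box TTANGTAA, searched on both strands, was found for 1 of the 36 genes (Eif2s2), against 2.72% of all genes. The ROR element core TAGGTCA, searched likewise, was found for 0 of the 36, against 2.97% of all genes.

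The targeted gene was checked first. At CT0 Arntl had 15.9 ± 0.37 RPKM (SD, n = 3) in the WT samples and 6.37 ± 0.94 in the KO samples, a difference of -1.21 ± 0.13 (SE) in log2(RPKM + 1) with an adjusted p of 5.8e-04 by limma. At CT12 it was 1.05 ± 0.32 RPKM in WT and 3.99 ± 0.39 in KO, and the KO samples were the higher ones (difference 1.29 ± 0.13, adjusted p = 6.3e-05). These are values of a whole transcript row and were not read at the deleted exon alone.

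Depth, recovered from the step size of the low values, was between 11463300 and 19019100 reads per sample, with WT at CT0 the deepest group. The hepatocyte markers (Alb, Apoa1, Ttr, Serpina1a and Tat) were all present. Their summed level ran from 42846 to 48084 RPKM in WT at CT0, from 35818 to 43560 in WT at CT12, from 26547 to 31716 in KO at CT0 and from 23339 to 26734 for KO mice at CT12. Most of the sum was Alb. The other 4 together ran from 10100 to 10522 and from 8606 to 9291 RPKM in WT at CT0 and CT12, and from 8082 to 10474 and from 9111 to 10368 in KO. Of the 32 markers of hepatocytes and other cell types in the tables, 27 were tested. Alb was lower in KO at both times and Cela1 was higher in KO at CT12, and no other marker passed the test between genotypes. In WT, Cela1, Dcn, Emr1 and Krt7 were lower at CT12 than at CT0. Between the WT times the summed levels of 6 other lists did not overlap and were the lower at CT12. Endothelial markers ran from 47.5 to 54.1 RPKM at CT0 and from 31.6 to 33.6 at CT12, stellate cell and fibroblast markers from 113 to 154 and from 80.7 to 95.1, macrophage markers from 136 to 183 and from 85.8 to 130, leukocyte markers from 5.76 to 6.52 and from 3.60 to 5.01, cholangiocyte markers from 1.999 to 2.79 and from 0.55 to 1.97, and the pancreas list, led by Cela1, from 6.71 to 10.96 and from 3.65 to 6.61. Its member Cpa1 was at 0 in every sample. Erythroid markers overlapped. In bulk liver, fewer cells of a type and less RNA per cell cannot be told apart.

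The genes spanned a wide range of levels in liver. RPKM is scaled to transcript length, but each level is that of the gene's highest row. Rows of the same gene can differ, so the order of genes depends on the row taken. The longest Eif4g2 row, for example, ran from 42.5 to 57.1 RPKM over the samples. Eif4a1, a helicase that opens the messenger RNA, was the highest with a mean of 162 RPKM over the 12 samples. It was followed by Eif5a at 129, a factor that also acts in elongation, by Eif4a2 at 106, and by Eif4g2 at 103, a scaffold that lacks the eIF4E-binding part of eIF4G. The cap-binding protein gene Eif4e had 12.6 RPKM. Its paralogue Eif4e2 had 20.6 in a row of 1119 bases, the highest of its 7 rows, and Eif4e3 had 1.67. The longest Eif4e2 row, of 3473 bases, ran from 5.96 to 8.60 RPKM, below the lowest Eif4e sample (11.2), so the order of Eif4e and Eif4e2 depends on the row. Of the 13 eIF3 subunit genes, 10 lay close together, between 33.7 RPKM for Eif3a and 66.1 for Eif3i, whereas Eif3b had 17.2, Eif3f 9.60 and Eif3j, the loosely bound subunit, 4.65. Eif5b, which joins the ribosomal subunits, had 3.59 RPKM.

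Of the 47 pairs of neighbours in this order, 44 overlapped in their 12 samples, so most of the order between neighbours lies within the spread. The 3 exceptions were the steps from Eif5b to Eif4e3, Eif5a2 and Eif4e1b at the low end. The 12 samples of Eif4a2 ran from 91.4 to 141 RPKM and those of Eif4g2 from 86.4 to 115, while the lowest Eif4a1 sample (120 RPKM) lay above all but 2 of the Eif4a2 samples. A pair of genes did not reach the limit for testing. Eif5a2 had group means of 0.08 to 0.20 RPKM, and its 3 WT samples at CT12, which rest on 5 to 7 reads each, were the lowest of the 12. Eif4e1b was listed at 0 in every sample, where 3 reads would have been 0.074 to 0.123 RPKM.

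**Figure D1:**
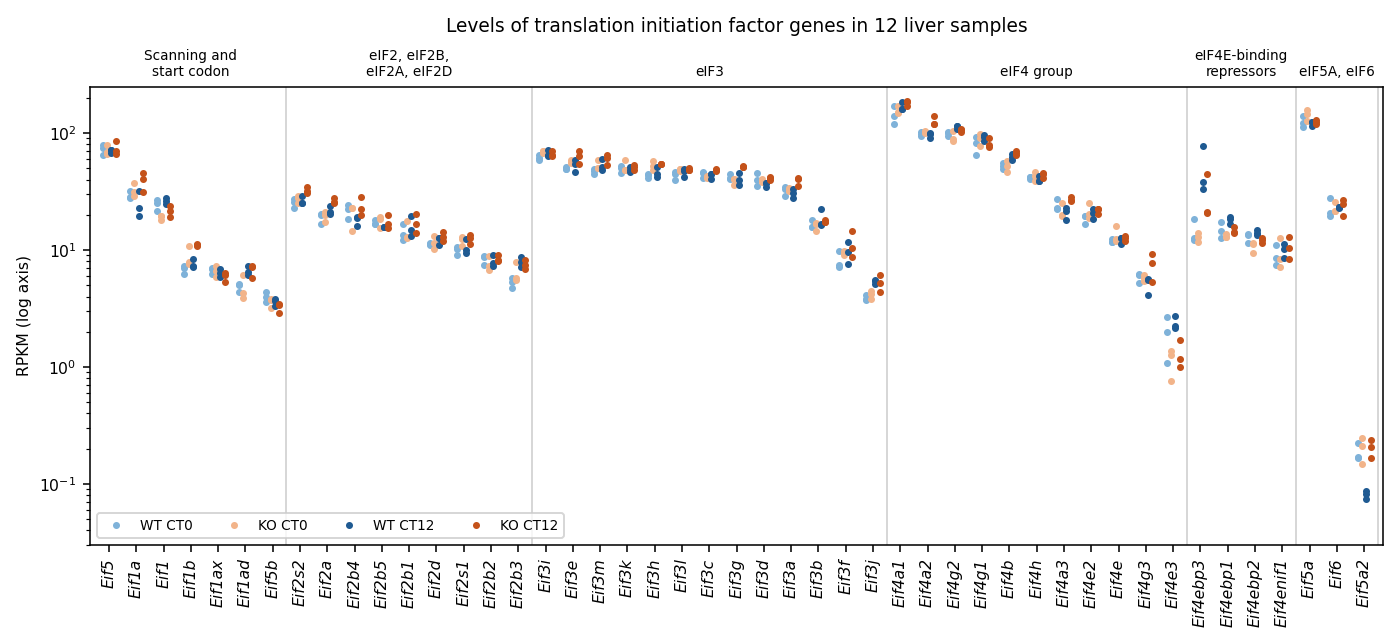
Level of each translation initiation factor gene in every sample, in RPKM on a log axis, grouped by role and ordered by mean within a role. Each point is 1 of 12 liver samples, coloured by group, and Eif4e1b is left out because it was listed at 0. Eif4a1 is the highest gene with a mean of 162 RPKM, 10 of 13 eIF3 genes lie between 33.7 and 66.1 RPKM, and Eif4ebp3 is the gene whose groups stand furthest apart.

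The first comparison asked how these genes differ between KO and WT at CT0. None of the 46 tested genes passed the threshold of an adjusted p under 0.05 by limma, against 1.86% of all 10799 tested genes (1.02% higher and 0.843% lower in KO), and 4 of them had an unadjusted p under 0.05 (14.2% of all genes did). Their median difference was 0.04 in log2(RPKM + 1), with 27 genes higher and 19 lower in KO, beside a median of 0.01 over all genes. The differences ran from -0.43 for Eif4e3 to 0.30 for Eif1b. For 43 of the 46 genes the 95% interval of the difference lay within 1.5-fold in either direction on this scale, which held for 74.2% of all genes.

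Some of the genes separated the 3 KO from the 3 WT samples at CT0 without passing the test. In all, 7 had every KO sample above every WT sample (Eif1b, Eif2s1, Eif3e, Eif3h, Eif3i, Eif3l and Eif3m), where 11.3% of all genes did so. Another 2, Eif1 and Eif3g, had every KO sample below, where 9.27% of all genes did so. For Eif3g the gap was slight, from 40.568 RPKM in the highest KO sample to 40.571 in the lowest WT sample. Of the first 7, 5 encode eIF3 subunits. Among the 13 eIF3 genes at CT0 the median difference was 0.07, with 9 higher and 4 lower in KO.

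The same comparison at CT12 gave 5 genes past the threshold, and all 5 rose in KO. They were Eif1a, Eif1b, Eif3a, Eif3g and Eif4a2, which are 10.9% of the 46 genes, beside 10.5% of all tested genes called in either direction, 6.97% called higher and 3.49% called lower. The share is near the background. The median difference of the 46 genes was 0.09 and that of all genes was 0.08, with 33 of the 46 genes and 65.1% of all genes higher in KO. For 39 of the 46 genes the 95% interval lay within 1.5-fold, against 67.3% of all genes, and 15 had an unadjusted p under 0.05, beside 24.9% of all genes. There were 11 genes with all KO samples above all WT samples (20.4% of all genes) and 4 with all of them below (8.39%). When samples were brought to a common median, 2 genes passed the threshold, 1 higher (Eif4a2) and 1 lower (Eif1), and with quantile normalization 3 passed, 2 higher (Eif3g and Eif4a2) and 1 lower (Eif1).

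**Figure D2:**
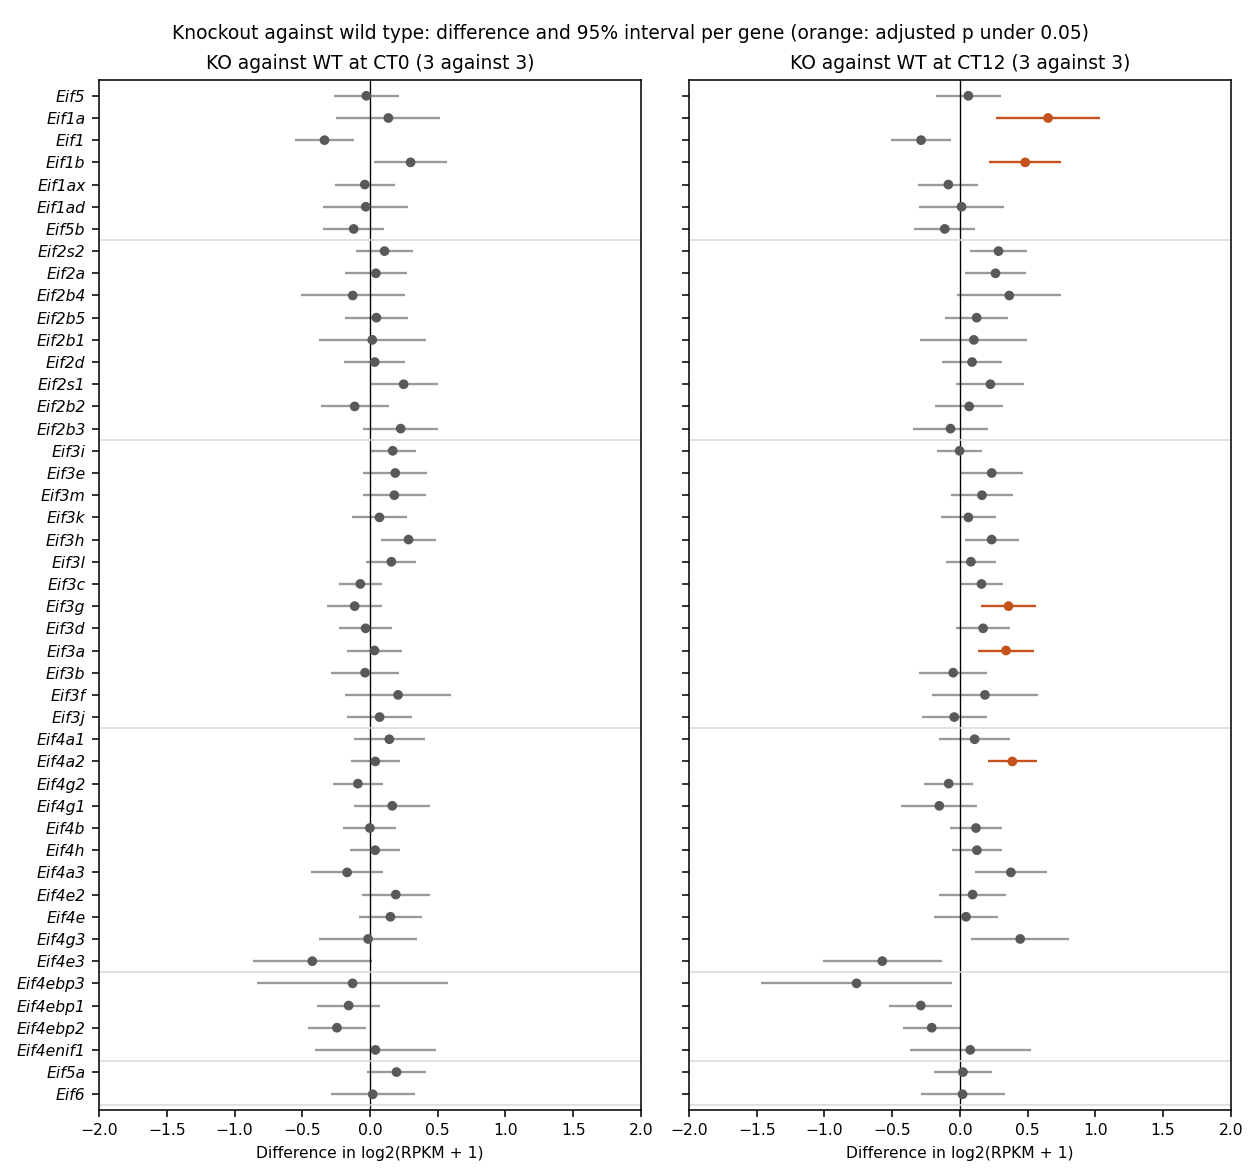
Difference between KO and WT in log2(RPKM + 1) for the 46 tested genes at CT0 (left) and CT12 (right), 3 samples against 3, grouped by role. Points are the limma estimates, lines their 95% intervals, and orange marks an adjusted p under 0.05. None is orange at CT0 and 5 are at CT12, Eif1a, Eif1b, Eif3a, Eif3g and Eif4a2, all to the right of 0.

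Eif4a2 encodes the second cytoplasmic eIF4A helicase. Its levels at CT12 were 98.4, 91.4 and 100 RPKM in the WT samples and 119, 121 and 141 in the KO samples. At CT0 they were 95.2, 99.3 and 103 in WT and 99.7, 102 and 103 in KO. The 3 KO samples at CT12 stood above the other 9 samples, which all lay between 91.4 and 103 RPKM. The CT12 difference was 0.39 ± 0.08 (SE) in log2(RPKM + 1), adjusted p = 0.010, and it stayed past the threshold under 21 of 21 alternative settings (0.31 to 0.43, adjusted p 0.006 to 0.048). The 4 transcript rows of the gene gave 0.38 to 0.39. The gene lies on chromosome 16 from 23107517 to 23114209 on the plus strand (NCBIM37), and small nucleolar RNA genes lie within it. Of its row, 55.4% has a copy elsewhere in the genome of at least 50 bases at 98% identity, so reads of such copies could enter the value.

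Eif4a1, the main eIF4A helicase gene, did not pass the test in any comparison. It had 171, 139 and 120 RPKM in WT at CT0, 172, 150 and 148 in KO at CT0, 184, 160 and 160 in WT at CT12 and 189, 172 and 183 in KO at CT12. The groups overlapped at each time. The difference at CT12 was 0.11, with a 95% interval from -0.15 to 0.37. Copies elsewhere cover 99.9% of its row. Eif4a3, a helicase of the same family that sits in the exon junction complex, was higher in all 3 KO samples at CT12 (difference 0.38, adjusted p = 0.073). It passed the threshold under 3 of 21 alternatives, which were the longest transcript row, summed rows and the fit without KO CT0 replicate 2.

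Eif1a encodes eIF1A, which binds the small subunit and helps it scan for the start codon. At CT12 it had 31.7, 19.6 and 22.9 RPKM in WT and 45.5, 31.1 and 40.9 in KO, so the lowest KO sample lay just under the highest WT sample. At CT0 it had 32.2, 28.4 and 27.7 in WT and 28.9, 31.3 and 37.5 in KO, which overlapped. The CT12 difference of 0.65 ± 0.18 was the greatest of the 5 (adjusted p = 0.035). The call was lost under 9 of 21 alternatives, with adjusted p values of up to 0.12. These were the fits without KO CT12 replicate 1 or 3, WT CT0 replicate 2, or WT CT12 replicate 2 or 3, those with either other scaling, with no filter and with only the samples compared. Eif1ax, the copy of this gene on the X chromosome, had a mean of 6.40 RPKM and did not pass the test.

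Eif1b, a paralogue of the start codon selection factor Eif1, had 7.17, 7.35 and 8.37 RPKM in WT and 10.8, 11.2 and 11.1 in KO at CT12. At CT0 it had 7.04, 7.28 and 6.26 in WT and 10.9, 7.89 and 7.52 in KO. Every KO sample lay above every WT sample at both times. The CT12 difference was 0.48 ± 0.12 (adjusted p = 0.027), and the CT0 difference was 0.30 ± 0.12 with an adjusted p of 0.28. The CT12 call was lost without any 1 of the 3 KO samples at CT12 and without WT CT12 replicate 1 or 2 (adjusted p up to 0.084), and also with a common median and with quantile normalization, which makes 7 of 21 alternatives. Each value rests on 79 to 149 reads. The gene lies on chromosome 9 from 120401724 to 120404445 (NCBIM37, plus strand).

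Eif1 went the other way. Its 3 KO samples lay below its 3 WT samples at both times, with group means of 24.5 and 19.1 RPKM in WT and KO at CT0 and of 26.3 and 21.4 at CT12. The differences were -0.34 (adjusted p = 0.13) and -0.29 (adjusted p = 0.097), and 3 alternative settings carried the CT12 difference past the threshold. Its row is annotated as a processed transcript of this protein-coding gene, and 71.3% of it has copies elsewhere. The other genes of scanning and start codon recognition, Eif1ad, Eif5 (which triggers GTP hydrolysis by eIF2) and Eif5b, differed by no more than 0.12 at either time. Over the 7 genes of this role the median difference was -0.03 at CT0 and 0.01 at CT12.

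Among the 13 genes of eIF3, the scaffold on the small subunit, Eif3a and Eif3g were higher in KO at CT12 by the test and the other 11 did not pass it. Copies elsewhere cover 88.0% of the Eif3m row. Eif3a, the largest subunit, had 33.0, 30.8 and 28.02 RPKM in WT at CT12 and 40.5, 35.4 and 41.2 in KO. At CT0 it had 34.6, 33.1 and 29.1 in WT and 32.9, 33.7 and 32.2 in KO. The KO samples at CT12 were the 3 highest of the 12. The difference at CT12 was 0.34 ± 0.09 (adjusted p = 0.039), and it was 0.03 ± 0.09 at CT0. Of 21 alternatives, 10 took it above the threshold (adjusted p up to 0.15), among them leaving out KO CT0 replicate 2 or 3, KO CT12 replicate 1 or 3, WT CT0 replicate 2, or WT CT12 replicate 2 or 3. The gene lies on chromosome 19 from 60837019 to 60866596 on the minus strand (NCBIM37), and 10.4% of its row has a copy elsewhere.

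Eif3g, an RNA-binding subunit, had 45.6, 35.7 and 39.7 RPKM in WT at CT12 and 51.4, 51.6 and 52.4 in KO. At CT0 it had 44.7, 41.7 and 40.6 in WT and 40.6, 40.3 and 36.3 in KO. There the genotypes nearly touched, with 40.568 RPKM in the highest KO sample and 40.571 in the lowest WT sample. The estimated differences had opposite signs at the 2 times. The CT12 difference was 0.36 ± 0.09 (adjusted p = 0.029), and that at CT0 was -0.11 ± 0.09 with an adjusted p of 0.65. The difference between these differences, the genotype by time interaction, was 0.47 ± 0.13 with an adjusted p of 0.13, so it did not pass the test. Without any 1 of the KO samples at CT12, or without WT CT12 replicate 2 or 3, the CT12 call was lost (adjusted p up to 0.10), as it was with a common median and with only the samples compared, which makes 7 of 21 alternatives. No copy of its row was found elsewhere. The gene lies on chromosome 9 from 20698796 to 20703044 on the minus strand (NCBIM37).

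**Figure D3:**
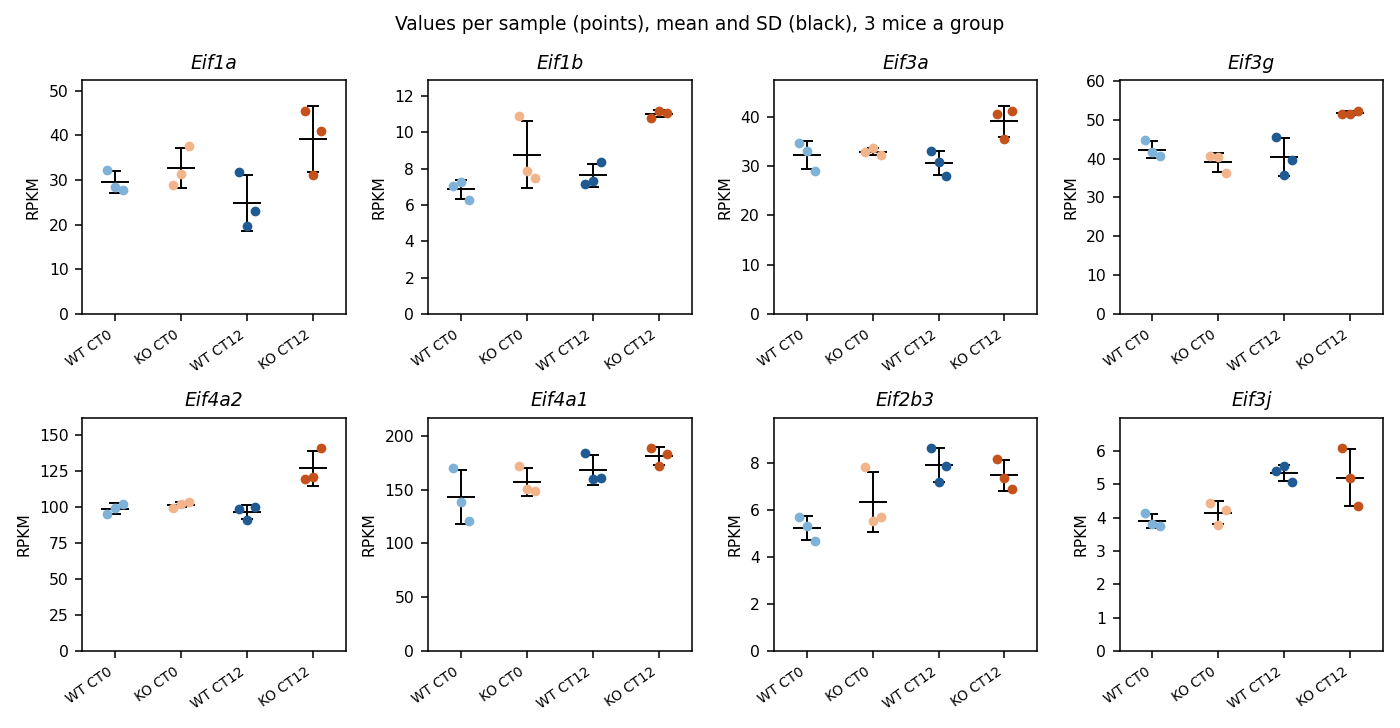
Level in RPKM of 8 genes in each sample, with 3 samples per group and axes from 0. Points are samples, the black bar is the mean and the whiskers are 1 SD. In Eif4a2 the KO samples at CT12 (119 to 141 RPKM) stand above all others. Eif1a, Eif1b, Eif3a and Eif3g also passed the test there. Eif2b3 and Eif3j passed it between the WT times, and Eif4a1 passed it nowhere.

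The count of 5 at CT12 rested on single libraries. It was 1 (Eif4a2) without WT CT12 replicate 2 and 2 (Eif1b and Eif4a2) without WT CT12 replicate 3. Without KO CT12 replicate 1 it was 2, of which Eif4a2 was among the 5 and Eif4ebp3, lower in KO, was not. Without KO CT12 replicate 3 it was also 2, Eif4a2 and, outside the 5, Eif4g3. It was 3 without KO CT12 replicate 2 (Eif1a, Eif3a and Eif4a2) or without WT CT0 replicate 2 (Eif1b, Eif3g and Eif4a2). The hepatocyte marker sum was lower in every KO sample than in every WT sample at both times, whereas the sum of its members other than Alb overlapped at both, with CT12 means of 9035 RPKM in WT and 9843 in KO. The genotypes overlapped at CT12 in none of 3 other lists, all higher in KO, which were the erythroid markers (82.4 to 144.6 RPKM in WT, 167 to 213 in KO), the stellate cell and fibroblast markers (80.7 to 95.1 and 98.2 to 131.5) and the pancreas list (3.65 to 6.61 and 13.9 to 21.6). The part of these markers in the differences was not tested.

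The genes of eIF2, of its exchange factor eIF2B and of the other initiator tRNA carriers did not pass the test between genotypes. At CT12, 8 of these 9 genes were higher in KO, with a median difference of 0.12 and a range from -0.07 for Eif2b3 to 0.36 for Eif2b4. Eif2s1, the eIF2 subunit that stress kinases phosphorylate, had 10.6, 10.2 and 9.07 RPKM in WT at CT0 and 12.9, 12.3 and 10.9 in KO. At CT12 it had 12.4, 9.36 and 9.96 in WT and 11.3, 12.8 and 13.3 in KO. All KO samples were above the WT samples at CT0 and the groups overlapped at CT12. The differences were 0.25 (95% interval 0.00 to 0.50, adjusted p = 0.36) and 0.23 (-0.03 to 0.48, adjusted p = 0.25). Eif2a, Eif2b4 and Eif2s2 had all KO samples above all WT samples at CT12, and none of them passed. Of the Eif2s2 row, 59.0% has a copy elsewhere.

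In the cap-binding group, Eif4e had 12.4, 11.8 and 11.6 RPKM in WT at CT0, 15.97, 11.9 and 12.5 in KO at CT0, 12.7, 12.7 and 11.2 in WT at CT12 and 11.9, 12.8 and 13.3 in KO at CT12. The samples lay between 11.2 and 13.3 RPKM apart from KO CT0 replicate 1. Copies elsewhere cover 56.7% of its row. Its difference was 0.15 at CT0 (95% interval -0.08 to 0.38) and 0.05 at CT12 (-0.19 to 0.28). Eif4g1, the main eIF4G scaffold, had 91.8, 82.2 and 65.4 RPKM in WT at CT0 and 98.2, 78.4 and 90.5 in KO. At CT12 it had 96.8, 85.8 and 92.1 in WT and 79.4, 91.4 and 76.5 in KO. In the row used here, of 741 bases, the genotypes overlapped at both times, with differences of 0.16 (-0.12 to 0.44) and -0.15 (-0.43 to 0.13). In the row of the gene's longest transcript, of 5638 bases, all KO samples lay below all WT samples at CT12. There WT had 86.1, 84.1 and 88.1 RPKM and KO had 76.0, 78.8 and 75.8. Over the gene's 11 rows the differences were 0.05 to 0.22 at CT0 and -0.19 to -0.15 at CT12.

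Eif4e3, a cap-binding paralogue at a low level, had group means of 1.91 RPKM in WT and 1.13 in KO at CT0 and of 2.37 and 1.28 at CT12. All 3 KO samples lay below all 3 WT samples at CT12. The difference there was -0.57 ± 0.20 (adjusted p = 0.096), and it passed the threshold only without WT CT0 replicate 1 (adjusted p = 0.044). Eif4b and Eif4h, which stimulate the helicase, Eif4e2 and Eif4g2 differed by no more than 0.19 at either time. Eif4g3 was 0.45 higher in KO at CT12 without passing.

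Eif4ebp1 and Eif4ebp2 encode eIF4E-binding proteins. Eif4ebp1 had 12.7, 14.5 and 17.3 RPKM in WT at CT0 and 12.9, 12.8 and 13.6 in KO. At CT12 it had 18.5, 16.7 and 19.2 in WT and 14.4, 15.6 and 13.9 in KO, where all KO samples were below all WT samples. The CT12 difference was -0.29 ± 0.11 (adjusted p = 0.11), and the threshold was not passed under any of 21 alternatives. Eif4ebp2 had 11.5, 13.6 and 13.4 in WT and 9.39, 11.5 and 11.2 in KO at CT0. At CT12 it had 13.4, 13.98 and 14.9 in WT and 12.1, 12.6 and 11.5 in KO, again with all KO samples below. Its CT0 difference was -0.24 ± 0.10 with an adjusted p of 0.27, and its CT12 difference was -0.21 ± 0.10 (adjusted p = 0.22). Eif4enif1, which carries eIF4E into the nucleus, differed by 0.08 at CT12 with a 95% interval wider than these.

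The next comparison asked which genes differ between CT12 and CT0 in WT. There 3 genes passed the threshold and all 3 rose at CT12, which is 6.52% of the 46, beside 11.6% of all tested genes in either direction, 3.71% higher and 7.88% lower. At an unadjusted level, 6 had a p under 0.05, beside 26.9% of all genes. The median difference was 0.09 with 29 of 46 genes higher at CT12, while over all genes the median was -0.07 and 38.8% were higher. Of the genes, 7 had all CT12 samples above all CT0 samples (11.2% of all genes) and 1 had them below (22.9%). Without WT CT0 replicate 2, WT CT12 replicate 1 or WT CT12 replicate 3, the count was 1, Eif4ebp3. The lower sums of other cell types' markers at CT12 in WT move with this comparison. So does the sum of the 4 hepatocyte markers other than Alb, from 10100 to 10522 RPKM at CT0 and from 8606 to 9291 at CT12. The part of these sums in the comparison was not tested.

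Eif4ebp3, which encodes the third eIF4E-binding protein, rose most. It had 12.2, 18.6 and 12.6 RPKM in WT at CT0 and 78.3, 33.5 and 38.1 at CT12. The KO samples had 11.8, 12.9 and 14.1 at CT0 and 44.3, 21.3 and 20.7 at CT12. Every CT12 sample lay above every CT0 sample in both genotypes, and replicate 1 was the highest of its group at CT12 in each. In WT the difference was 1.64 ± 0.32 in log2(RPKM + 1), adjusted p = 0.007, and it stayed past the threshold under 21 of 21 alternatives (1.27 to 1.87). In KO it was 1.01 ± 0.32, adjusted p = 0.12, and 0.66 with an adjusted p of 0.31 without KO CT12 replicate 1. The interaction was -0.63 ± 0.46 (95% interval -1.63 to 0.36, adjusted p = 0.63), so the change was not shown to differ between genotypes.

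At CT12 the level of Eif4ebp3 was 49.97 ± 24.7 RPKM (SD, n = 3) in WT and 28.7 ± 13.4 in KO, a difference of -0.76 ± 0.32 with an adjusted p of 0.17. Of the KO samples, 2 lay below all WT samples, and KO CT12 replicate 1 lay within the WT range. Without that library the difference was -1.11 with an adjusted p of 0.043, and without WT CT12 replicate 1 it was -0.39 with an adjusted p of 0.45. At CT0 the genotypes overlapped, with a difference of -0.13 (95% interval -0.83 to 0.58).

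Eif4ebp3 lies on the plus strand of chromosome 18 within the span of Ankhd1, on the same strand. Ankhd1 was looked at after these values were seen. Of its 7 transcript rows, 1 row shares 501 of its 2235 exonic bases with the Eif4ebp3 row, and that row had means of 9.60 RPKM in WT at CT0, 18.9 in WT at CT12, 8.82 in KO at CT0 and 12.8 in KO at CT12. The other 6 rows share no exonic base with it, and none of them had a higher mean at CT12 than at CT0 in WT. In the longest of these, of 8223 bases, the means were 8.73, 7.87, 7.74 and 7.79 RPKM in the same order.

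The summed level of the 3 genes of eIF4E-binding proteins in WT was 42.2 ± 5.29 RPKM at CT0 and 82.2 ± 24.6 at CT12 (SD, n = 3). In KO the sum was 36.7 ± 2.40 and 55.4 ± 13.4. Eif4ebp3 made up 34.1% ± 5.35 of this sum in WT at CT0 and 58.7% ± 10.7 at CT12, and 35.2% ± 0.90 and 50.2% ± 10.8 in KO. Set against Eif4e in the same sample, the sum was 3.54 ± 0.55 times the Eif4e level in WT at CT0, 6.71 ± 1.82 at CT12, 2.79 ± 0.57 in KO at CT0 and 4.44 ± 1.33 at CT12. The Eif4e row has copies elsewhere over 56.7% of its length. These sums and ratios were not tested.

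**Figure D4:**
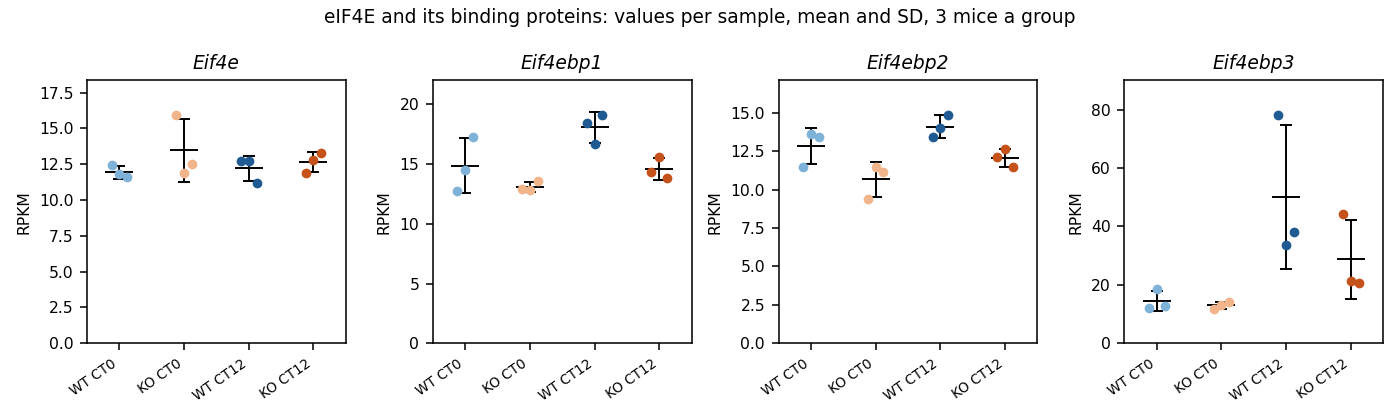
Level in RPKM of Eif4e and the 3 genes of eIF4E-binding proteins in each sample, 3 samples per group, with axes from 0. Points are samples, the black bar is the mean and the whiskers are 1 SD. Eif4e means stay between 11.9 and 13.5 RPKM, while Eif4ebp3 goes from 14.5 to 49.97 RPKM between CT0 and CT12 in WT and from 12.9 to 28.7 in KO.

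Eif2b3, a subunit of the exchange factor eIF2B, had 5.72, 5.34 and 4.71 RPKM in WT at CT0 and 8.65, 7.21 and 7.90 at CT12, with no overlap. In KO it had 7.84, 5.54 and 5.73 at CT0 and 8.21, 7.39 and 6.90 at CT12, where the groups overlapped. The difference was 0.51 ± 0.13 in WT (adjusted p = 0.024) and 0.22 ± 0.13 in KO (adjusted p = 0.37). Its interaction estimate was -0.30 with an adjusted p of 0.55. The WT call was lost without WT CT0 replicate 2 or 3 or WT CT12 replicate 1 or 3 (adjusted p up to 0.089), 4 of 21 alternatives. The gene lies on chromosome 4 from 116692007 to 116759911 on the plus strand (NCBIM37).

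Eif3j had 4.15, 3.81 and 3.75 RPKM in WT at CT0 and 5.41, 5.56 and 5.08 at CT12, and 4.44, 3.78 and 4.24 in KO at CT0 and 6.09, 5.18 and 4.35 at CT12. The WT times did not overlap and the KO times did, by KO CT12 replicate 3. The difference was 0.37 ± 0.11 in WT (adjusted p = 0.047) and 0.26 ± 0.11 in KO (adjusted p = 0.21). The WT value kept its call under 10 of 21 alternatives and lost it without any 1 of the 6 WT samples (adjusted p up to 0.13). Of its row, 95.9% has a copy elsewhere in the genome, and Spg11 overlaps the gene on the opposite strand. The gene lies on chromosome 2 from 121854282 to 121882334 on the plus strand (NCBIM37).

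In KO, 1 gene passed the threshold between CT12 and CT0. It was Eif3g, 0.40 ± 0.09 higher at CT12 (adjusted p = 0.048), which makes 2.17% of the 46 beside 2.43% of all tested genes (1.1% higher and 1.32% lower). It kept the call under 6 of 21 alternatives, and in 10 of the 12 fits that each left out 1 library it was lost (adjusted p up to 0.15), including each of the 6 KO libraries. Of the 46 genes, 13 had an unadjusted p under 0.05, beside 19.9% of all genes. The median difference of the 46 was 0.16 with 38 higher and 8 lower at CT12, while over all genes the median was -0.002 and 49.7% were higher. In KO, 11 genes had all CT12 samples above all CT0 samples (11.9% of all genes) and 0 had them below (11.4%). The 11 included Eif4a2 (0.31, adjusted p = 0.068), Eif4b (0.37, adjusted p = 0.054) and Eif2a (0.41, adjusted p = 0.063). In KO the summed markers of 4 lists did not overlap between the times. Those of stellate cells and fibroblasts (143 to 170 RPKM at CT0, 98.2 to 131.5 at CT12), leukocytes (5.82 to 6.49 and 3.52 to 5.70) and cholangiocytes (1.71 to 4.59 and 0.55 to 1.64) were lower at CT12, and those of erythroid cells (153 to 157 and 167 to 213) were higher. Their part was not tested.

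No gene passed the test of the interaction, which asks whether the difference between times depends on genotype, where 1.49% of all tested genes did (1.07% positive and 0.417% negative), and 5 had an unadjusted p under 0.05, beside 12.3% of all genes. The estimates ran from -0.63 for Eif4ebp3 to 0.55 for Eif4a3, with a median of 0.04 against 0.07 over all genes. For 33 of the 46 genes the 95% interval lay within 1.5-fold, beside 46.9% of all genes. Among the genes given sample by sample, Eif6, which keeps the ribosomal subunits apart, had the smallest estimated differences as a set. It had 27.9, 19.7 and 20.8 RPKM in WT at CT0, 25.7, 21.7 and 21.5 in KO at CT0, 23.3, 23.0 and 23.4 in WT at CT12 and 27.0, 24.9 and 19.4 in KO at CT12. The groups overlapped and its 4 differences were all 0.02 to 0.04, with 95% intervals that lay between -0.29 and 0.35. The row has 373 bases, and the gene's 3 rows gave 0.02 to 0.17 for KO against WT at CT12. Eif5a differed by 0.20 at CT0 and by 0.02 at CT12 and did not pass.

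**Figure D5:**
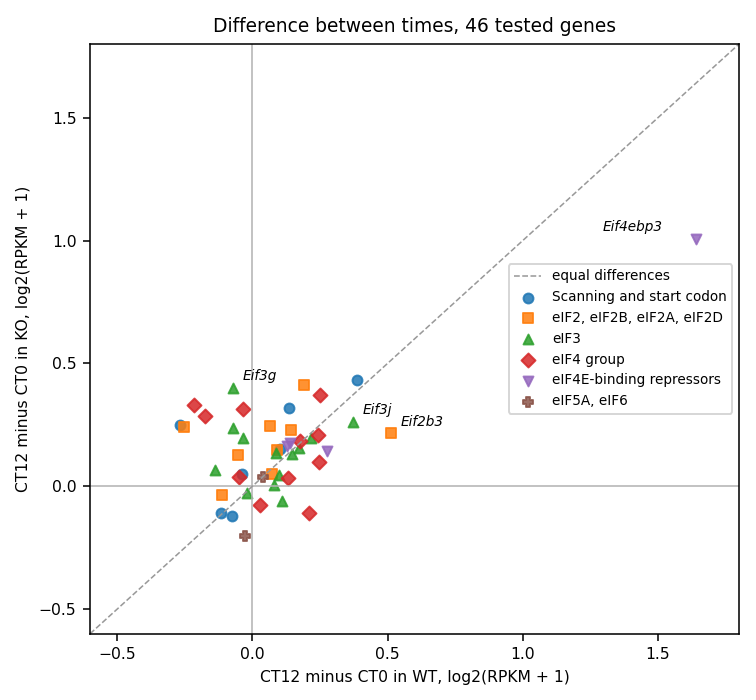
Difference between CT12 and CT0 in log2(RPKM + 1) for the 46 tested genes, in WT (horizontal axis) and in KO (vertical axis), with 1 point per gene, markers by role and the dashed line at equal differences. Of the points, 29 lie to the right of 0 and 38 above 0. Eif4ebp3 stands alone at 1.64 in WT and 1.01 in KO, and every other gene lies between -0.27 and 0.51 on both axes.

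Added over all the genes, the level in WT was 1541 ± 68.6 RPKM at CT0 and 1651 ± 102 at CT12 (SD, n = 3), and 1612 ± 50.2 in KO at CT0 and 1771 ± 31.9 in KO at CT12. The 3 KO samples at CT12 lay between 1734 and 1791, and WT CT12 replicate 1, at 1769, lay within that range. The 13 eIF3 genes summed to 482 ± 14.4, 499 ± 28.6, 516 ± 9.23 and 558 ± 17.7 RPKM in the same order. The sums were not tested.

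Genes that act on these factors were taken as 4 lists of 46 genes in all, and all 46 were tested. None passed the threshold between genotypes at CT0, between times in KO or in the interaction. At CT12, 2 were higher and 1 lower in KO, which is 6.52% beside 10.5% of all tested genes, and in WT 2 were higher and 2 lower at CT12 than at CT0, which is 8.70% beside 11.6%. Mknk2, a kinase that phosphorylates eIF4E, rose in WT from 14.7 ± 2.08 to 33.5 ± 2.97 RPKM (difference 1.14, adjusted p = 0.009). It was lower in KO at CT12, at 16.7 ± 1.73 RPKM (difference -0.96, adjusted p = 0.021). Ddit4, an inhibitor of mTORC1, was higher in KO at CT12, with 6.46 ± 1.91 against 2.42 ± 0.77 RPKM (difference 1.12, adjusted p = 0.030). At CT0 its KO samples (7.29, 2.29 and 5.07 RPKM) also lay above its WT samples (1.60, 2.06 and 1.86), without passing the test (difference 0.95, adjusted p = 0.14). Paip2b, which restrains the poly(A)-binding protein, was also higher in KO at CT12 (0.42, adjusted p = 0.032).

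Of the 18 genes of the mTORC1 and eIF4E list, Larp1 and Pdcd4 fell between CT0 and CT12 in WT. Larp1, which binds messenger RNAs of ribosomal proteins, fell by 0.49 (adjusted p = 0.039), and Pdcd4, an inhibitor of eIF4A, fell by 0.54 (adjusted p = 0.041). Of the 9 genes of the integrated stress response, which includes the eIF2 kinases, Ppp1r15b passed a test. It directs the phosphatase of eIF2 and was 0.44 higher at CT12 in WT (adjusted p = 0.041). None of the 9 genes of elongation and release passed in any comparison.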

How the data were processed

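For each sample the authors deposited RPKM values of 46585 transcripts. The submitters' processing notes name TopHat2, bedtools 2.19.1 and mm9. How reads matching several transcripts or copies were counted is not given in the sources used here, and neither is the use of strand. The members and lists were chosen with earlier results of these data known. Of these rows, 95.5% had a length in GENCODE vM1 (NCBIM37, the build of the gene positions). With it, 94.5% to 95.9% of low values (at most 5 reads) were whole reads within 0.02, which gave the depth.

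One row per symbol was tested as log2(RPKM + 1), so fold changes of low genes are understated. The 10799 symbols whose mean reached 1 RPKM in a group entered limma 3.58.1 in R 4.3.3 (lmFit, eBayes with trend, 4 group means over 12 samples, Benjamini-Hochberg adjustment, threshold 0.05), checked on simulated data. P-values are two-sided. They rest on 1 estimate of each gene's spread within groups, shared over the 4 groups of 3 samples and drawn towards the trend over all tested genes. Genes past the threshold, and Eif4ebp1, Eif4ebp2, Eif4ebp3, Eif2s1, Eif4e, Eif4g1, Eif4a1 and Eif6, were given sample by sample. Others, such as Eif1 and Eif4e3, were picked after their values were seen. Copies were sought with blastn 2.17.0. Alternatives were another pseudocount (0.1), other filters, scaling and rows, a replicate block, fewer samples, and leaving out each library. Same-numbered samples did not deviate together (mean r = 0.008, with 2 of 18 pairs over 0.1), so numbers were not taken as pairs.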

Additional observations from a re-analysis of the deposited data

How the results depend on the processing

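Between genotypes at CT0 and in the interaction, the count of genes past the threshold was 0 under every alternative run. For KO against WT at CT12 (5 genes) it was 2 with samples brought to a common median, 2 with only the samples compared and 3 with quantile normalization, and it ran from 1 to 6 when single libraries were left out. The other alternatives gave 5 to 7. Between times in WT (3 genes) it was 2 or 3 under all alternatives that kept every library, and 1 to 4 without single libraries. Between times in KO (1 gene) it was 2 with the longest transcript row, 4 with quantile normalization, and 0 with no filter, with only the samples compared, with a pseudocount of 0.1 and with summed rows, and it ran from 0 to 2 without single libraries. With the replicate block it was 0, and the block left the counts of 5 and 3 and the counts of 0 as they were. No direction reversed. The longest row and the common median were chosen after seeing the data. The causes were not tested. Where a group was left with 2 samples, the spread was shared over all groups. Depth limits Eif5a2 (5 to 21 reads) and Eif4e3 (22 to 114 reads) most.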
